A study of Drosophila melanogaster with 8 samples.

Results

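The genes described here are the 200 most abundant transcripts of control testes of *Drosophila melanogaster*, taken as the 200 genes with the highest mean cRPKM over both *Tj-Gal4* libraries, out of 11773 genes with a cRPKM value. cRPKM is the authors' corrected RPKM, a level per length of merged exons that they adjusted for library size and composition. RNA-seq was performed on whole testes of 5-day-old adult males in 2 groups with 2 libraries each, each library made from 1 pair of testes. *Tj>E(Pc) shRNA* testes (*Tj-Gal4/+; UAS-E(Pc) shRNA/+*) carried an shRNA against *Enhancer of Polycomb*, which encodes a subunit of the Tip60 histone acetyltransferase complex. *Tj-Gal4* testes carried the driver alone, without the shRNA. The *traffic jam* driver acts in the somatic cyst cell lineage, whereas RNA was taken from the whole organ, with its germ cells and the muscle of its wall. Fewer cells of a type and less RNA per cell therefore cannot be told apart in these values.

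Spermatogenesis starts at the apical tip, where germline stem cells and somatic cyst stem cells surround the hub. Spermatogonia divide within an envelope of cyst cells and become spermatocytes, which grow and transcribe most of the genes used later. After meiosis the spermatids fuse their mitochondria into the Nebenkern, elongate along the axoneme and replace histones by protamine-like proteins. Transcripts of many spermatid genes are made in spermatocytes, stored and translated later, and a small group known as comet and cup genes is transcribed after meiosis. Genes for mitochondria, energy supply and protein folding often have a related copy used in the male germline.

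The levels of the 200 genes were close together. Mean cRPKM in *Tj-Gal4* testes was 244.5 for the first gene, *loopin-1*, and 196.6 for the last, *CG18335*. The span was 47.9, and the median SD of a gene between the 2 *Tj-Gal4* libraries was 36.9, with all 200 genes higher in *Tj-Gal4* 1 than in *Tj-Gal4* 2. Within each library the first gene was above the last: *loopin-1* had 282.3 and 206.7 cRPKM in *Tj-Gal4* 1 and 2, and *CG18335* had 218.3 and 174.9. The threshold also fell on a continuous slope, since *CG11635*, *CG10859* and *CG18335* stood just inside at 196.7, 196.6 and 196.6, and *CG31244*, *wam* and *Atg8b* just outside at 196.6, 196.4 and 196.0. The genes were chosen by their cRPKM in the *Tj-Gal4* libraries, so their levels are a description and are not tested.

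Levels of the 200 genes ran opposite to depth across libraries. Total counts were 6251181 and 3691459 in *Tj>E(Pc) shRNA* 1 and 2, against 3307767 and 4273908 in *Tj-Gal4* 1 and 2. The median cRPKM of the 200 genes was 122.4 and 191.9 in *Tj>E(Pc) shRNA* 1 and 2, against 237.7 and 185.1 in *Tj-Gal4* 1 and 2. It was highest in the library with the fewest counts and lowest in the one with the most. The 200 genes took 4.27% and 6.21% of all counts in the *Tj>E(Pc) shRNA* libraries, against 7.33% and 6.1% in the *Tj-Gal4* libraries.

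Divided by the length of the merged exons in bases, the counts of the same genes came close to 1. Their median was 0.878 and 0.746 counts per base in *Tj>E(Pc) shRNA* 1 and 2, against 0.792 and 0.853 in *Tj-Gal4* 1 and 2. The median over all genes was 0.125 and 0.0617 counts per base in *Tj>E(Pc) shRNA* 1 and 2, against 0.0408 and 0.0619 in *Tj-Gal4* 1 and 2. No gene exceeded 1 count per base in any library (0 of 14256 genes), and the highest value was 0.965 in *Tj>E(Pc) shRNA* 1. Levels of the 200 genes lay close together within each library, the highest being 1.54 and 3.63 times the lowest in *Tj>E(Pc) shRNA* 1 and 2, against 1.33 and 1.23 times in *Tj-Gal4* 1 and 2. Removal of reads at the same position is not stated for these libraries, and the part of the limit at 1 in the results was not tested. Counts per base are therefore given beside the levels.

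Proteins of the developing sperm made up the largest groups of members with a known role. Of the 200 genes, 37 were in 1 of the functional lists used here, 32 had another name, 119 (59.5%) were known by a CG or CR number alone and 12 had no symbol in the gene tables used. Lists were matched by symbol, so those 12 could not be placed in any list, whatever their role. Every number of list members given here leaves them out. The sperm leucyl aminopeptidases, abundant proteins of the fly sperm that belong to a family of metallopeptidases, were nearly all present: 7 of 8, with *loopin-1*, *S-Lap7*, *S-Lap4*, *S-Lap8* and *S-Lap3* among the first 16 genes. *S-Lap5* was outside at rank 259. Of the 33 genes for the sperm tail and sperm chromatin, 11 were present, *loopin-1* being in both lists.

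*loopin-1* had 133.5 and 237.3 cRPKM in *Tj>E(Pc) shRNA* 1 and 2, against 282.3 and 206.7 in *Tj-Gal4* 1 and 2. The ranges of the genotypes overlapped, and in counts per base its values were 0.956 and 0.922 in *Tj>E(Pc) shRNA* testes, against 0.941 and 0.952 in *Tj-Gal4* testes. *S-Lap2*, the lowest of the 7, had 112.1 and 191.9 cRPKM in *Tj>E(Pc) shRNA* 1 and 2, against 233.4 and 171.9 in *Tj-Gal4* 1 and 2. The order of the libraries was the same for both genes, and it was also the reverse order of total counts.

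Proteins that pack the sperm nucleus came next. *Mst77F*, which encodes a linker histone-like protein of the condensed sperm nucleus, had 119.8 and 199.5 cRPKM in *Tj>E(Pc) shRNA* testes, against 248.9 and 182.7 in *Tj-Gal4* testes. *Tpl94D*, which encodes a transition protein that is present while histones are exchanged, had 124.1 and 184.9 cRPKM in *Tj>E(Pc) shRNA* testes, against 240.6 and 188.3 in *Tj-Gal4* testes. *Mst77F* overlapped between the genotypes and *Tpl94D* did not, its higher *Tj>E(Pc) shRNA* value being just under its lower *Tj-Gal4* value. *Mst33A*, *Mst84Db*, *Mst84Dc* and *Mst98Ca*, male-specific transcripts of which the Mst84D and Mst98C proteins are parts of the sperm tail, had mean cRPKM in *Tj-Gal4* testes between 200.5 and 217.5 together with *Tpl94D*, *djl*, *ocn*, *fan*, *salto* and *Mst77F*.

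The axoneme was represented by few genes at this level. *betaTub85D*, the testis-specific beta-tubulin of meiotic spindles and the axoneme, had 129.8 and 224.6 cRPKM in *Tj>E(Pc) shRNA* testes, against 271.8 and 199.9 in *Tj-Gal4* testes. It stood at rank 14, with the alpha-tubulin gene *alphaTub84B* at rank 61 and *robl62A*, a dynein light chain of the roadblock family, at rank 72. The other listed tubulin and axoneme genes were below the threshold, 3 of 39 being members. That list also holds *Dic3* and *Dic4*, which are in the mitochondrial carrier list too. In the list of mitochondrial carrier, translocase and Nebenkern genes, 2 of 34 were members. They were *Porin2*, an outer membrane channel, and *ttm2*, an inner membrane translocase. The list was matched by symbol and missed *tomboy20* and *tomboy40*, members at ranks 63 and 136 that are related to the listed translocase genes *Tom20* and *Tom40*.

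Energy metabolism and protein folding contributed several genes with a related copy elsewhere in the genome. The 4 listed genes of glycolysis and the tricarboxylic acid cycle (of 40) were *Pglym87*, a phosphoglycerate mutase, *Hex-t2*, a hexokinase, *Scsalpha2*, a succinyl-CoA synthetase subunit, and *CG12229*. The 4 chaperones (of 35) were *Hsp60B* and *Hsp60C*, the mitochondrial chaperonins of the male germline, *Hsc70-2* and the cytosolic chaperone *Hsp83*. *COX4L* and *COX6CL*, subunits of cytochrome c oxidase, were the members among 95 oxidative phosphorylation genes. Outside the lists, *Gpdh3* and *Gpo3*, both enzymes of the glycerol-3-phosphate shuttle, *Vha68-3*, a subunit of the vacuolar proton pump, and *TrxT*, a thioredoxin, were also present.

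Genes for general protein synthesis and turnover that could be matched by symbol were mostly below the threshold. The 12 members without a symbol could not be checked against these lists. Of the 86 genes for cytoplasmic ribosomal proteins, 1 was a member, the paralog *RpL10Aa* at rank 182, and the list had a median of 0.423 counts per base in *Tj-Gal4* testes. Of 52 translation factors, *eIF2A* and *eIF4E5*, a cap-binding protein with a role in the male germline, were members. The RNA-binding list had 1 member of 15, *fest*. Proteasome genes had no member among 45, with *Prosbeta5R1*, a testis-specific proteasome subunit, highest at rank 383, and actin genes had none among 24, with *Act42A* at rank 224. The mitochondrial genome itself has no genes in the table.

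Among the lists tied to a stage or cell type, members were in the sperm leucyl aminopeptidase, sperm tail and chromatin, and comet and cup lists, and none in the markers of the testis tip or wall. The other listed members belong to lists by function, not by stage. Among comet and cup genes 1 of 19 was a member, *boly* at rank 196. *w-cup*, named here after its value was seen because it is not in that list, stood at rank 12. None of the 20 genes listed for the spermatocyte transcription program was a member. Transcripts of many spermatid genes are also made in spermatocytes, and the members for the sperm tail stand in another list. The absence of members from this list therefore does not show that transcripts made in spermatocytes are missing among the members. The highest of the 20 was *fzo*, which encodes the GTPase that fuses spermatid mitochondria, at rank 640. The markers of early germ cells were far lower, with *bgcn* highest at rank 3181 of 7 genes. The highest genes of the cyst lineage and hub list and of the muscle sheath list were *upd1* at rank 4972 and *Act57B* at rank 3364. No marker of accessory gland, ejaculatory bulb and duct or fat body was a member either, and the highest of these was *EbpIII* at rank 2450.

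**Figure D1:**
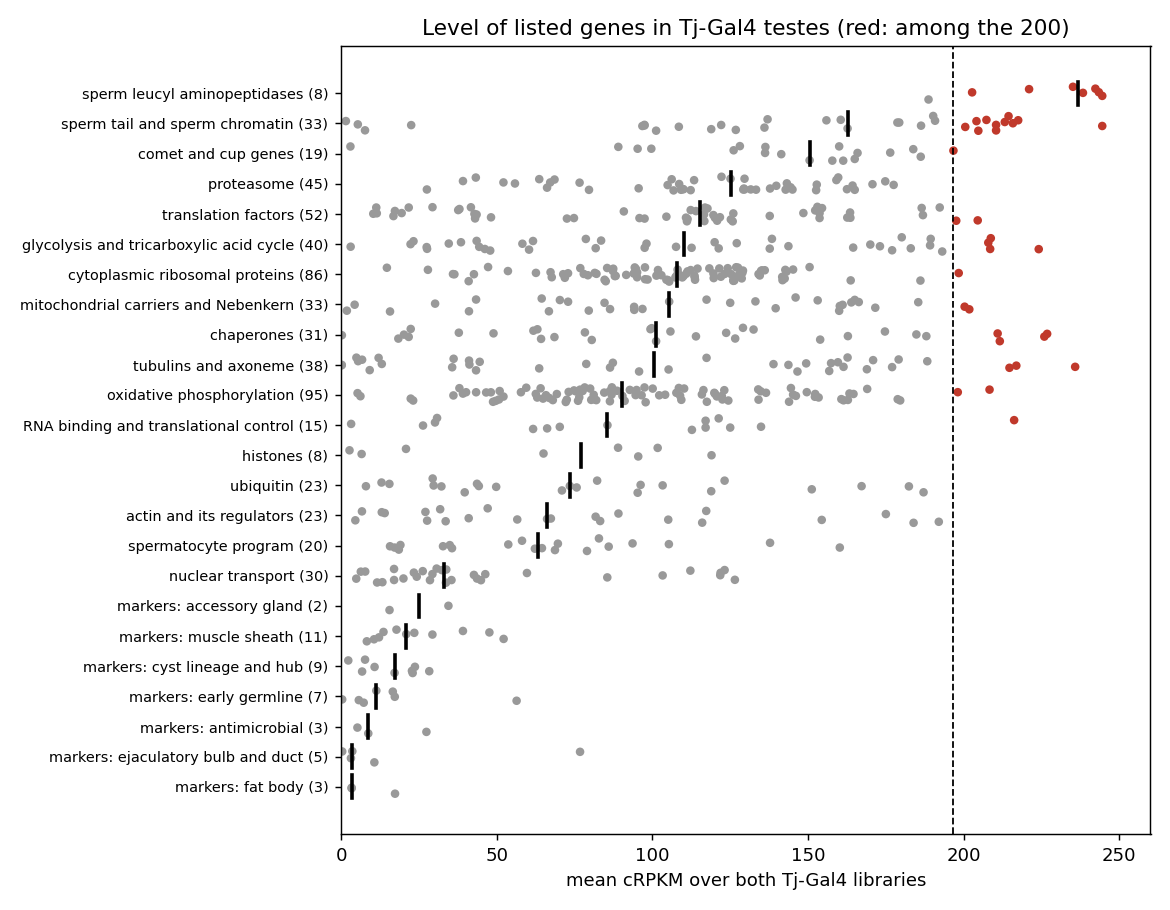
Mean cRPKM over both *Tj-Gal4* libraries of every gene of each functional or marker list with a cRPKM value (their number in brackets), 1 point per gene, red for the 200 most abundant genes, with a bar at each list's median and a broken line at the lowest of the 200. The sperm leucyl aminopeptidases lie almost wholly to the right of the line (7 of 8), while the lists for early germ cells, the cyst lineage and the muscle sheath lie far to its left.

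Many members are copies of genes that also have a more general form. After the members were known, 22 of them were set beside a related gene of the same family, and 19 such pairs had both genes in the table under those symbols. The member was higher in *Tj-Gal4* testes in 19 of 19 pairs, which the choice of members largely fixes, and the median ratio of cRPKM was 3.09. *Gpo3* had 204.0 ± 33.3 cRPKM and *Gpo1* 4.98 ± 0.0298 (SD, n = 2 each), a ratio of 40.9, the highest of the 19. The lowest ratio of the 19 was 1.39, for *Hsp60B* and *Hsp60C* over *Hsp60A*. *Hsc70-2* with *Hsc70-4*, *betaTub85D* with *betaTub56D* and *TrxT* with *Trx-2* could not be compared, because the related gene was not found by symbol. Whether any of the 12 members without a symbol is such a related gene could not be checked, so these numbers hold for the 19 pairs alone. *Gpdh3* over *Gpdh1* gave 10.6, *Pglym87* over *Pglym78* gave 8.15 and *gskt*, a GSK3 kinase, over *sgg* gave 7.47. The members stood near 1 count per base and the related genes did not, so a ratio of these levels need not be a ratio of transcript numbers. Reads shared between close copies were not counted because a single alignment site was required.

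**Figure D2:**
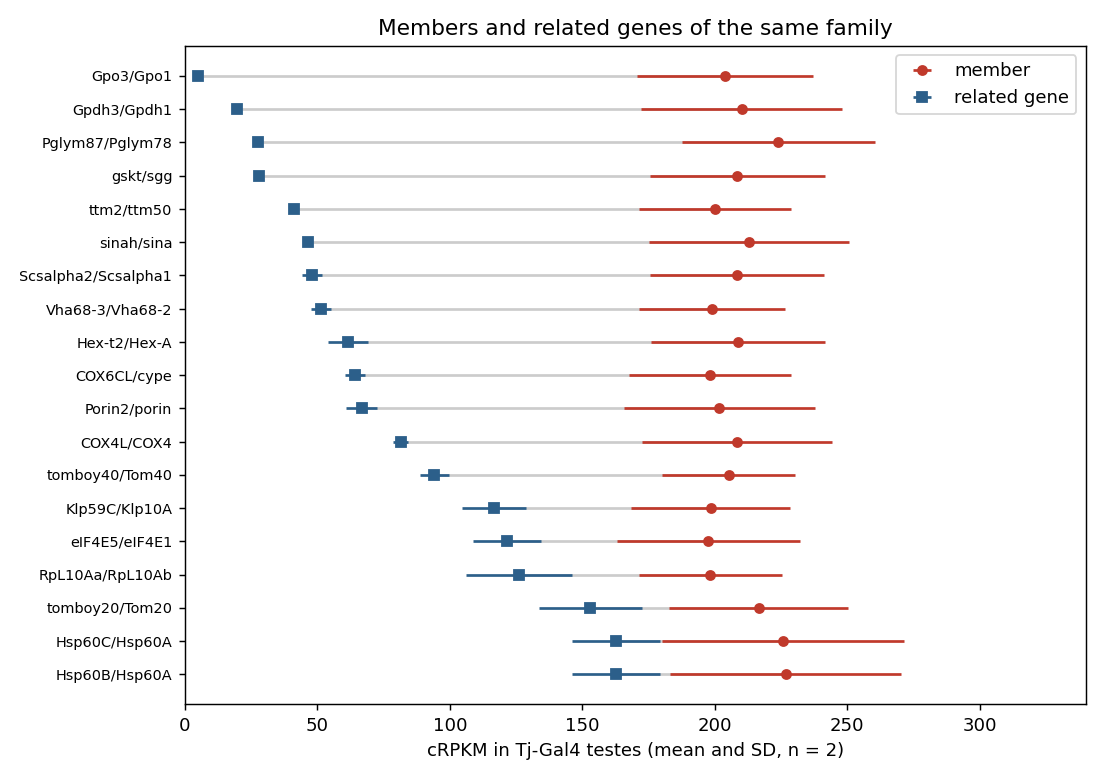
Mean cRPKM in *Tj-Gal4* testes (SD bars, n = 2) of 19 members (red circles) and of a related gene of the same family (blue squares), ordered by the level of the related gene. The members lie in a narrow band near 200, whereas the related genes run from 4.98 (*Gpo1*) to 162.8 (*Hsp60A*).

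Of the 18 related genes, 4 were called higher in *Tj>E(Pc) shRNA* testes by edgeR's quasi-likelihood test at an adjusted p under 0.05 and 0 lower, near the 22.5% of all genes tested that were called higher. *Pglym78* had 37.8 and 36.2 cRPKM in *Tj>E(Pc) shRNA* testes, against 27.5 and 27.5 in *Tj-Gal4* testes, a log2 fold change of 0.43 (SE 0.15, edgeR adjusted p = 0.0482). *Gpdh1*, *Gpo1* and *ttm50* had log2 fold changes of 0.41, 0.63 and 0.41. None of the 19 paired members was called, and the difference of change within a pair was not tested.

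The members shared features of position and length that the contrast did not use. The X chromosome held 12 of the 200 genes (6.0%), against 15.9% of the genes tested. Arms 2L, 2R, 3L and 3R held 51, 43, 36 and 58, and the fourth chromosome held 0 of its 76 tested genes. The 12 X-linked members included *TrxT*, *Tsf1* and *lncRNA:CR32690*, which was the single member annotated as non-coding. Members were shorter than other genes, with a median merged-exon length of 1287.5 bp against 1843 bp, with quartiles of 935 and 2044.5 bp against 1113 and 3111.5 bp. The 200 genes that followed the members in the control order were shorter still, with a median of 1182.5 bp. Length enters cRPKM as its divisor, so the difference in length is tied to how the genes were chosen.

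Some of the 200 genes lay side by side. In the order of genes in the RefSeq annotation of assembly Release 6, 27 of the 187 members that could be placed had another member as a direct neighbour, in 12 runs. The longest run, on 2R, was *boly*, *CG18449*, *CG2127* and *CG8701*, with *CG8701* at rank 4 and *CG18449* at rank 15 in *Tj-Gal4* testes. *CG1394*, *CG15200* and *CG11106* formed a run on X. *S-Lap1* with *S-Lap2*, *Mst84Db* with *Mst84Dc*, *CG12861* with *CG12860*, and *djl* with *Mst84B* were pairs. Counting was not stated to use strand, so reads over neighbours that overlap could be shared between them.

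The next question was whether the 200 genes changed when the shRNA was expressed in the cyst lineage. All 200 had lower fitted values in *Tj>E(Pc) shRNA* testes, the middle value of log2 fold change being -0.42 (quartiles -0.45 and -0.41), whereas the median over all 11163 genes tested was 0.00. The median SE of a member was 0.23. The 3 genes *Tsf1*, *tHMG2* and *CG31802* fell by edgeR's quasi-likelihood test (3 of 200, 1.5%), against 11.4% of all genes called lower. At an unadjusted p under 0.05, 35 of the 200 were lower, and the share of all genes at that limit is not given here. None of the 200 was called higher by that test (0 also at an unadjusted p under 0.05, and 0 by DESeq2), against 22.5% of all genes. The same control libraries that chose the members are the divisor of this contrast, so the counts describe and do not test.

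The 2 *Tj>E(Pc) shRNA* libraries differed from each other by more than the fitted difference between genotypes. In CPM scaled by TMM, the median log2 ratio of the 200 genes was -0.63 for *Tj>E(Pc) shRNA* 1 over *Tj>E(Pc) shRNA* 2 and -0.35 for *Tj-Gal4* 2 over *Tj-Gal4* 1. Both *Tj>E(Pc) shRNA* libraries lay below both *Tj-Gal4* libraries for 56 of the 200 genes, 28.0%, against 33.8% of all genes tested. For 0 of the 200 genes did both lie above, against 38.9% of all genes. On the cRPKM scale the numbers were 55 below (32.9% of all genes) and 0 above (38.4% of all genes). In counts per base, *Tsf1* and *tHMG2* lay below both controls (1.96% of all genes did) and FBgn0000556 above both (33.7% of all genes did). The members' median log2 fold change was -0.77 without *Tj>E(Pc) shRNA* 2 and -0.12 without *Tj>E(Pc) shRNA* 1. It was -0.25 without *Tj-Gal4* 1 and -0.59 without *Tj-Gal4* 2.

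The fold change varied with counts per base across the whole table. Among all genes tested the median log2 fold change was 0.46 at 0.05 to 0.1 counts per base, -0.01 at 0.2 to 0.3, -0.34 at 0.4 to 0.5 and -0.42 at 0.8 to 1. The 122 genes of the last range were all members, and 77 of the 238 genes at 0.7 to 0.8, whose median was -0.43, were members as well. The 200 genes that followed the members in the control order had a median of -0.44. Of those 200, 21 were called lower by the edgeR test, near the 11.4% of all genes tested. The members' median was thus close to that of the genes next to them in level. Of the members, 190 lay within 0.1 of the members' own median.

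**Figure D3:**
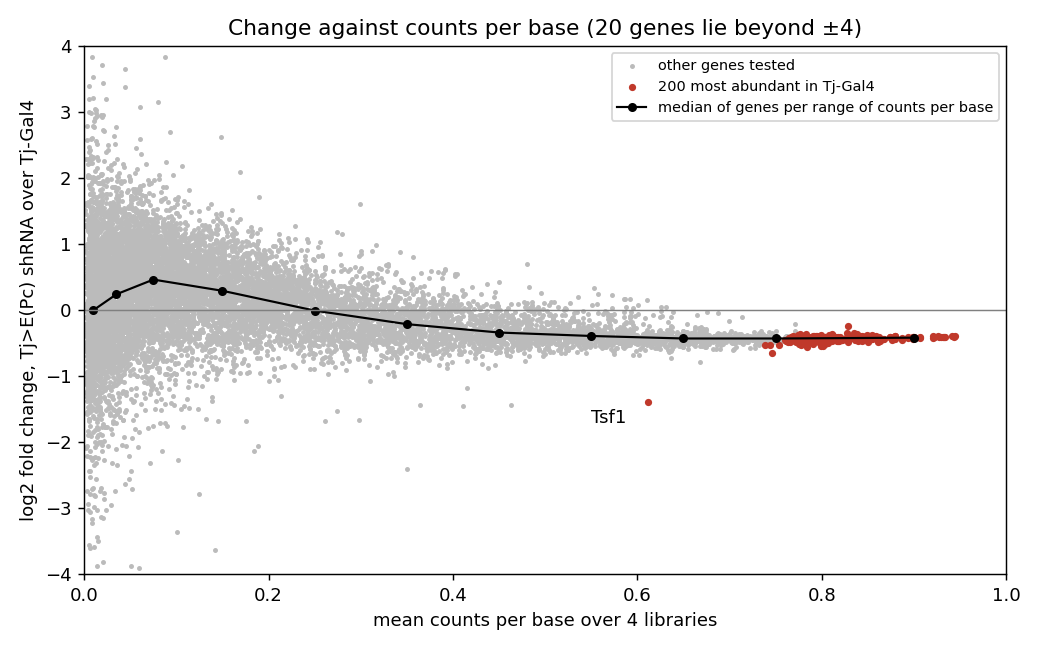
Log2 fold change of *Tj>E(Pc) shRNA* over *Tj-Gal4* against mean counts per base for the 11163 genes tested, 1 point per gene, red for the 200 most abundant genes, with the median in each range of counts per base as a black line. The median was 0.46 at 0.05 to 0.1 counts per base and -0.42 at 0.8 to 1, and *Tsf1* lies apart from the other members at -1.39.

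*Tj>E(Pc) shRNA* 2 and *Tj-Gal4* 1 had the most similar totals, a ratio of 1.12, and were compared directly. Raw counts of the 200 genes were lower in *Tj>E(Pc) shRNA* 2 for 193 genes and higher for 6, with a median of -0.07 on the log2 scale. The 6 were *sinah*, *Hsp83*, *CG9016*, *CG30412*, FBgn0001219 and FBgn0000556. In CPM the same pair of libraries had a median of -0.29, with 0 genes higher. Set against *Tj-Gal4* 2, *Tj>E(Pc) shRNA* 2 had a median of -0.19 in raw counts, with 1 gene higher. In CPM that median was 0.05, with 144 genes higher. Raw counts in *Tj>E(Pc) shRNA* 1, the deepest library, went the other way. They were higher than in *Tj-Gal4* 1 for 197 genes and higher than in *Tj-Gal4* 2 for 181. These are comparisons of libraries and not of genotypes. When counts were converted from occupied positions to reads, as an alternative treatment of the limit at 1 count per base, the members' median log2 fold change was -0.48 and 96 were called lower by edgeR (48.0%), against 20% of all genes. None was called higher in that fit (0 of 200, against 27.1% of all genes).

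**Figure D4:**
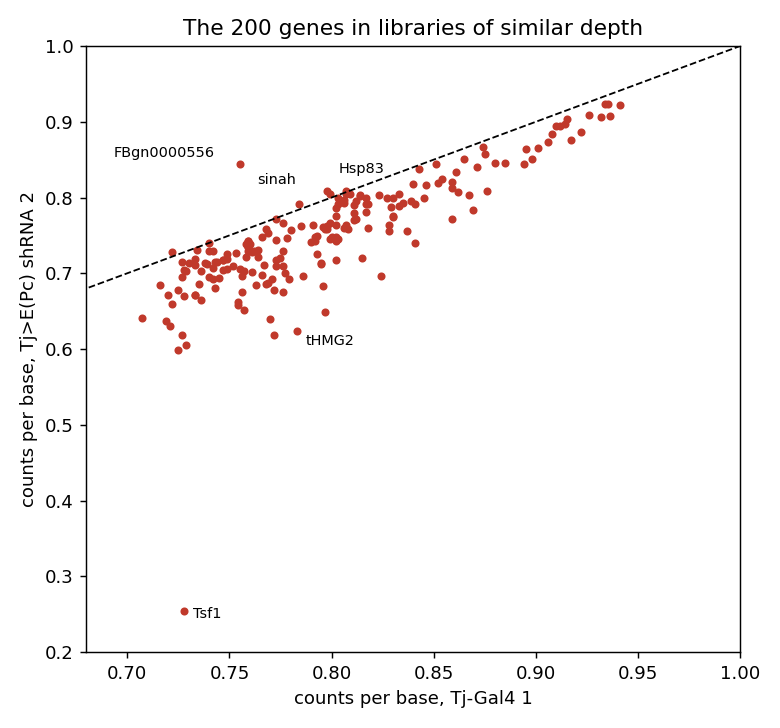
Counts per base of the 200 genes in *Tj>E(Pc) shRNA* 2 (vertical) and *Tj-Gal4* 1 (horizontal), the libraries of most similar depth, 1 point per gene, with a broken line where the values are equal. Nearly all genes lie just under the line, 193 of 200 having fewer counts in *Tj>E(Pc) shRNA* 2, and *Tsf1* lies far below it at 0.255 against 0.728.

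*Tsf1* was the member that changed most. It encodes transferrin 1, an iron carrier of the haemolymph made mainly in the fat body, and is on the X chromosome with 2006 bp of merged exons. It had 87.5 and 65.6 cRPKM in *Tj>E(Pc) shRNA* testes, against 218.3 and 183.3 in *Tj-Gal4* testes. Its counts per base were 0.622 and 0.255 in *Tj>E(Pc) shRNA* testes, against 0.728 and 0.844 in *Tj-Gal4* testes, so the genotypes did not overlap on either scale. The log2 fold change was -1.39 (SE 0.20, edgeR adjusted p = 0.000949), and it was called in 14 of 14 alternatives of the processing, between -1.61 and -1.19 with each library left out. Its rank was 2066 in *Tj>E(Pc) shRNA* testes, against 167 in *Tj-Gal4* testes, the only member to leave the first 400 genes.

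The fat body markers were low and did not all differ in 1 direction. Of the 6, 3 could be tested, and their summed CPM was 45.5 and 32.9 in *Tj>E(Pc) shRNA* testes, against 34.0 and 44.4 in *Tj-Gal4* testes. *Lsp2*, a larval storage protein, rose (log2 fold change 0.98, edgeR adjusted p = 0.0363), while *Yp3* and *Fbp2* had -0.38 and -0.74 and were not called. *Yp1*, *Yp2* and *Fbp1* had 0 to 3 counts in every library. Of the 6 antimicrobial peptide genes 2 could be tested, with summed CPM of 18.7 and 10.4 in *Tj>E(Pc) shRNA* testes, against 38.5 and 24 in *Tj-Gal4* testes. They did not change together: *AttC*, an attacin, fell (-1.35, edgeR adjusted p = 0.0206), while *DptA* had 0.06 (edgeR adjusted p = 0.914). *CecA1*, not tested, had 10 and 18 counts in *Tj>E(Pc) shRNA* 1 and 2, against 5 and 10 in *Tj-Gal4* 1 and 2. The part of these genes' source tissue in the *Tsf1* result was not tested.

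*tHMG2*, which encodes a testis protein with an HMG box, had 104.3 and 160.7 cRPKM in *Tj>E(Pc) shRNA* testes, against 234.7 and 178.7 in *Tj-Gal4* testes. In counts per base it had 0.753 and 0.624 in *Tj>E(Pc) shRNA* testes, against 0.783 and 0.824 in *Tj-Gal4* testes, again without overlap. The log2 fold change was -0.65 (SE 0.20, edgeR adjusted p = 0.0329), and the call was made in 11 of 14 alternatives, being lost without *Tj-Gal4* 1 and with limma on either pseudocount. *CG31802* had 120.4 and 164.9 cRPKM in *Tj>E(Pc) shRNA* testes, against 231.1 and 181.9 in *Tj-Gal4* testes. Its counts per base of 0.864 and 0.640 in *Tj>E(Pc) shRNA* testes overlapped the 0.770 and 0.838 of *Tj-Gal4* testes. Its log2 fold change was -0.53 (SE 0.18, edgeR adjusted p = 0.0463), called in 7 of 14 alternatives.

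The members next lowest in fitted change were not called. *sut4*, named as a sugar transporter, had 124.7 and 159.1 cRPKM in *Tj>E(Pc) shRNA* testes, against 231.5 and 185.6 in *Tj-Gal4* testes, and a log2 fold change of -0.56 (SE 0.20, edgeR adjusted p = 0.0515). *CG18266*, *robl62A*, *CG32026* and *CG10859* had log2 fold changes between -0.55 and -0.53, with edgeR adjusted p between 0.0668 and 0.0901. Their counts per base were 0.606 to 0.696 in *Tj>E(Pc) shRNA* 2, the lower of their libraries in each case, and 0.785 to 0.891 in *Tj>E(Pc) shRNA* 1.

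At the other end stood FBgn0000556, for which the gene tables used here give no symbol, on 2R with 2147 bp. It had 126.0 and 217.3 cRPKM in *Tj>E(Pc) shRNA* testes, against 226.6 and 177.0 in *Tj-Gal4* testes. In counts per base it had 0.902 and 0.844 in *Tj>E(Pc) shRNA* testes, against 0.755 and 0.815 in *Tj-Gal4* testes, the only member above both controls. Its log2 fold change was -0.23 (SE 0.26, edgeR adjusted p = 0.493), the sign depending on the scale, since it was 0.00 after conversion to reads and 0.11 without *Tj>E(Pc) shRNA* 1. *Hsp83*, FBgn0001219, *gdrd*, *sinah*, *CG33189*, *Pgm2a* and *TrxT* followed, with log2 fold changes from -0.35 to -0.37 and no call.

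Fitted values in each functional group of members were close to the median of all 200. The 7 sperm leucyl aminopeptidases had a median log2 fold change of -0.40 and ranged from -0.44 to -0.39, and 0 of 8 genes of that list were called by edgeR in either direction. The 10 listed members for the sperm tail and sperm chromatin other than *loopin-1* had a median of -0.43 and ranged from -0.49 to -0.40, none of them called. That list does not hold the members *tHMG2*, *Mst84B* and *Mst27D*, at -0.65, -0.39 and -0.48, of which *tHMG2* was called lower. In the full list of 33 sperm tail and sperm chromatin genes, 4 were called lower and 2 higher, with a median of -0.44. Of all genes tested, 11.4% were called lower and 22.5% higher. The 2 called higher in that list were *Mst85C* and *Pif1*, placed there by symbol alone, with 5.39 and 1.55 cRPKM in *Tj-Gal4* testes. The full list of comet and cup genes had a median of -0.42, with 3 of 19 called lower and 1 higher. The tubulin and axoneme list had a median of -0.41, with 10 of 37 tested genes called lower and 1 higher, none of the 10 being a member. Those called lower included *Dic3* (-0.73) and *Dic4* (-0.39), which the mitochondrial carrier list also holds, so the 10 are not axoneme genes alone. The ribosomal protein list, with a median of 0.423 counts per base in *Tj-Gal4* testes as given above, had a median of -0.02, with 0 of 86 called lower and 2 higher.

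Members without a described role had fitted values in the same range as the named ones. The 119 genes known by a CG or CR number had a median log2 fold change of -0.42 and a range from -0.55 to -0.37, with 1 called, *CG31802*. The 12 genes without a symbol had a median of -0.40. The highest unnamed member, *CG5089* at rank 2, had 134.7 and 237.7 cRPKM in *Tj>E(Pc) shRNA* testes, against 280.1 and 207.5 in *Tj-Gal4* testes. It had the highest counts per base of any gene in *Tj>E(Pc) shRNA* 1, 0.965. The X-linked members had a median of -0.41, against 0.21 for all X-linked genes tested.

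The list of abundant genes was largely shared by the genotypes. Of the 200 genes highest in *Tj-Gal4* testes, 184 (92.0%) were also among the 200 highest by mean cRPKM in *Tj>E(Pc) shRNA* testes. The *Tj>E(Pc) shRNA* libraries shared 154 of 200 with each other and the *Tj-Gal4* libraries 174 of 200, so single libraries of a genotype overlapped less than the means of the genotypes did. Between single libraries of different genotypes the number was 159 to 178. Ranked by counts per base, the genotypes shared 186 of 200.

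The 16 genes that left the list included *Tsf1*, *tHMG2*, *CG31802*, *sut4*, *Klp59C*, a microtubule-depolymerising kinesin, and *ttm2*. The 16 that entered it included *CG13978*, *CG14740*, *CG12362*, *CG17376*, *lncRNA:CR32658*, *Fum3* and *Dpy-30L2*. The others were *RpS2*, *RpS3* and *RpLP2* of the ribosome, the elongation factor *eEF2*, *eIF4G2*, *Tctp*, *Hsp26*, a small heat shock protein, *Act42A* and the ubiquitin-conjugating enzyme gene *eff*. None of the 16 was called by edgeR in either direction. *RpS3* had 114.3 and 182.0 cRPKM in *Tj>E(Pc) shRNA* testes, against 165.4 and 135.5 in *Tj-Gal4* testes, a log2 fold change of -0.03. *RpS3* had rank 176 in *Tj>E(Pc) shRNA* testes, against 792 in *Tj-Gal4* testes, the largest move into the list. In counts per base it had 0.822 and 0.707 in *Tj>E(Pc) shRNA* testes, against 0.551 and 0.625 in *Tj-Gal4* testes, without overlap, whereas on the cRPKM scale the genotypes overlapped. Of the 16, 12 had been within the first 400 genes of *Tj-Gal4* testes.

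Markers of cell types in the samples stood beside these results. Of 7 markers of early germ cells, 5 were called higher in *Tj>E(Pc) shRNA* testes by edgeR, against 22.5% of all genes tested. Their median was 0.0455 counts per base in *Tj-Gal4* testes. Among all genes, 479 of 1609 at 0.02 to 0.05 counts per base and 833 of 1834 at 0.05 to 0.1 were called higher. Summed CPM of these markers was 705.9 and 722.4 in *Tj>E(Pc) shRNA* testes, against 509.0 and 505.9 in *Tj-Gal4* testes. Markers of the cyst lineage and hub had summed CPM of 892.2 and 781.0 in *Tj>E(Pc) shRNA* testes, against 780.0 and 808.6 in *Tj-Gal4* testes. Of these 9 markers, 3 were called lower and 1 higher, against 11.4% and 22.5% of all genes tested. The part of cell composition in the change of the 200 genes was not tested. *E(Pc)* itself had 406.0 and 338.0 CPM in *Tj>E(Pc) shRNA* testes, against 274.0 and 276.0 in *Tj-Gal4* testes (log2 fold change 0.44, SE 0.18, edgeR adjusted p = 0.083), so its mRNA showed no decrease with the shRNA. The driver acts in a minority of the cells, so this level in whole testes does not check the knockdown.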

How the data were processed

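The sample labels gave the genotypes and replicate numbers. ChIP-seq was the assay of the remaining 4 samples, which are not used here. The authors aligned 50-nt single-end reads to dm3 with Bowtie 0.12.7, allowing 2 mismatches and 1 alignment site, assigned them to merged exons of FlyBase release 5.43 genes, and deposited counts per gene without normalization. cRPKM, an RPKM value deposited in a second table, was computed by the authors with edgeR from pseudo-counts, merged length and a common library size. Reads over overlapping genes were split between them. Nothing states that the libraries of a genotype came from separate crosses, so p-values measure the spread between these libraries.

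The 200 genes, the lists and the pairs were chosen with earlier results of these data known; the lists were written from general knowledge. Counts were tested with edgeR 4.0.16 in R 4.3.3 (filterByExpr, TMM, quasi-likelihood F test, Benjamini-Hochberg adjustment over 11163 of 14256 genes, calls at an adjusted p under 0.05). An SE is the log2 fold change divided by the square root of F. All 200 members passed the filter. Genes named are the 20 of highest mean cRPKM in *Tj-Gal4*, up to 4 per list, the 8 lowest and the 8 highest in fitted change and the 3 on each side of the threshold, and others chosen after their values were seen. Symbols matched for 13564 of 14256 identifiers. A gene's neighbours were taken from RefSeq assembly Release 6; no sequence was used. Alternatives were DESeq2 1.42.0, upper-quartile factors, library size alone, edgeR's exact test, no filter on low counts, at least 10 counts in every library, a replicate block, limma 3.58.1 on log2(cRPKM + 1) and log2(cRPKM + 0.1) (mean cRPKM 1 or more), counts converted to reads by treating each count as an occupied position (at most 0.98 per base), each library left out, other choices of members and an adjusted p under 0.01. The edgeR quasi-likelihood fit and the other main tests were tested on simulated counts.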

Additional observations from a re-analysis of the deposited data

How the results depend on the processing

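The median log2 fold change of the 200 genes stayed below 0 in every alternative run. With a library left out it lay between -0.77 and -0.12, so its size depended on single libraries. All alternatives differed from the reported -0.42 by less than the SD of the members' median between replicates (0.37). That SD is near the size of the change itself, so this limit is wide and does not show a stable size. No gene of the 200 was called higher in any alternative. The number called lower, 3 as reported, was 5 with DESeq2, 30 with upper-quartile factors, 16 with library size alone, 16 with the exact test, 15 with no filter on low counts, 6 with at least 10 counts in every library, 1 with limma on either pseudocount, 96 after conversion to reads and 1 at an adjusted p under 0.01; the cause was not tested. It was 1 to 197 with a library left out, the fits being left with a lone library in 1 genotype that is assumed to vary like the others. It was 1 for members chosen on *Tj-Gal4* 1 and set against *Tj-Gal4* 2, and 5 in the reverse case. With the replicate number as a block it was 2. Deviations of same-numbered libraries had a correlation of -0.25, and a crossed pairing, added after the data were seen, called 199 lower. Apart from the reported fit and the conversion to reads, the share of all genes called lower in each fit is not given here. Without that share, the counts do not show whether members were called more or less often than other genes. The log2 fold change of FBgn0000556 was 0.002 after conversion to reads, and with a library left out it lay between -0.664 and 0.106, above 0 without *Tj>E(Pc) shRNA* 1. The number of shared genes in the lists of 200 kept within 1.5 times of 184 in all alternatives run. No gene exceeded 1 count per base, so a rise of genes already near that value may not be detectable in these tables.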
